A study of Capra hircus with 4 samples.

Results

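Zymogen granule proteins and the machinery that moves the granules were followed through the cells of the goat pancreas, using single-cell RNA counts. The genes were chosen by symbol: ZG16, GP2, SYCN, CUZD1, ERP27, RAB3D, RAB27B, VAMP8, STX3 and AQP8. Of these 10 symbols, 9 were found among the 27137 genes of the deposited matrix, and CUZD1 was not analysed here. The tissue came from 4 female Liuyang black goats, twin animals with no treatment named in the labels, 2 of them 10 days old and not yet ruminating and 2 of them 6 months old and ruminating. Each gave 1 library, made with 10x Genomics 3' version 3 chemistry after digestion of the tissue by a mix of collagenase, dispase and DNase and removal of red and dead cells. The matrix numbers its libraries 1 to 4. The labels used here do not say which goat each numbered library came from, so libraries are given by number, no age is attached to any of them and the ages were not compared.

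Pancreatic acinar cells store digestive enzymes as inactive precursors in zymogen granules, which wait under the apical membrane and fuse with it when a secretagogue such as cholecystokinin or acetylcholine raises cytosolic calcium. Enzymes are made and folded in the endoplasmic reticulum, condense in the Golgi, and are packed inside a granule membrane that carries its own set of proteins. Rab GTPases on the granule surface steer docking, and SNARE proteins on the granule and on the target membrane join to drive fusion. Much of this machinery is shared with endocrine cells, leukocytes and other cells that secrete, whereas within the pancreas the granule contents are made mainly by the acinar cell.

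Libraries 1 to 4 held 43297855, 82817057, 65937591 and 55223412 UMIs and gave 2813, 3324, 3996 and 3083 cells (a total of 13216). The median cell held 6174, 8935, 7960.5 and 8185 UMIs. Cells were clustered without the 9 genes and without the other secretion genes described below, so none of these genes shaped the clusters. SCTR, the secretin receptor, is also among the markers that named the ductal-like cluster, so it took part in naming that class. Of the 13216 cells 2577 were acinar-like, 367, 1293, 848 and 69 of them in libraries 1 to 4. All 14 of the 14 matched acinar markers, of 25 fixed, were higher in acinar-like cells than in the other cells together in each of the 4 libraries. The clusters were named from these markers, so this describes the class and is no test of it, and PNLIP in libraries 2 and 3 rests on 7 and 26 counts against 0 in the other cells. Library 4 thus rests on 69 acinar-like cells, and its 11 ductal-like cells were too few for a comparison. Acinar-like cells of libraries 1 and 4 lay in cluster 4 with 365 and 63 cells, whereas those of libraries 2 and 3 lay mainly in clusters 22, 25 and 26, so that library and cluster largely coincide. Among the called cells 34 carried a barcode sequence found in more than 1 library (17 sequences).

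SYCN (gene ID 106503128) encodes syncollin, a small protein of the granule lumen that binds the inner face of the granule membrane. It made up 7.69%, 4.50%, 5.75% and 7.82% of all UMIs of acinar-like cells in libraries 1 to 4, and ranked 3, 4, 3 and 3 among all genes by UMI count. Its level was 76924, 45001, 57488 and 78237 counts per 1000000 UMIs of the class (CPM), with library 2 lowest and libraries 1 and 4 close to each other. Counts of 3' tags are not scaled by gene length, so this rank compares UMIs and not protein. The gene table of the RefSeq assembly ARS1.2 lists SYCN as a long non-coding RNA, while the other 8 matched genes are listed as protein-coding.

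GP2 (gene ID 102179535) encodes a glycoprotein anchored in the granule membrane by a lipid tail and shed into the pancreatic juice. Its level in acinar-like cells was 7882, 1737, 4106 and 3383 CPM in libraries 1 to 4. Library 1 was highest and library 2 lowest, 4.54-fold apart, with a 95% exact interval of 4.47 to 4.60 that covers counting error only. ZG16 (gene ID 102168316), a lectin-like protein held at the inner granule membrane through proteoglycans, differed far more between libraries, at 4755, 141, 410 and 3367 CPM. Library 1 exceeded library 2 in ZG16 by 33.7-fold (interval 32.6 to 34.9), the widest gap of the 9 genes. Acinar-like cells held 52.2, 3.43, 8.78 and 52.8 ZG16 UMIs per cell in libraries 1 to 4, and 86.5, 42.3, 88.0 and 53.0 GP2 UMIs per cell. Per cell GP2 was thus at a similar number in libraries 1 and 3 while ZG16 was not. The median acinar-like cell held 7733, 19536, 17724.5 and 11851 UMIs of all genes in libraries 1 to 4.

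ERP27 (gene ID 108636041), a non-catalytic member of the protein disulfide isomerase family that resides in the endoplasmic reticulum, stood at 312, 513, 456 and 326 CPM in acinar-like cells. AQP8 (gene ID 102174992), a water channel of the apical membrane in acinar cells, stood at 109, 335, 237 and 183 CPM. For both genes library 2 was highest and library 1 lowest, the reverse of GP2 and ZG16, with 1.65-fold (interval 1.56 to 1.75) between these libraries for ERP27 and 3.08-fold (2.80 to 3.40) for AQP8. The composition of acinar-like cells moved with the library as well. The 10 leading genes took 64.4%, 56.5%, 51.8% and 53.8% of UMIs, and the 9 matched digestive enzymes, of 20 fixed, took 27.8%, 9.90%, 10.8% and 23.4%. PNLIP, pancreatic lipase, stood at 13005 CPM in library 1 and 10938 in library 4 but at 0.222 and 1.43 in libraries 2 and 3, and the unnamed gene LOC102176156 at 364, 279834, 155828 and 46247 CPM in libraries 1 to 4. The library 4 value of LOC102176156 comes mostly from the few acinar-like cells outside cluster 4, since the 63 cells of cluster 4 were at 3045 CPM. The part of these shifts in the levels of the granule genes was not tested. Over UMIs outside the 10 leading genes, ZG16 ran from 13347 per 1000000 in library 1 to 324 in library 2, and GP2 from 22124 to 3997. ERP27 then ran from 1181 in library 2 to 706 in library 4, so its lowest library changed with the denominator.

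**Figure D1:**
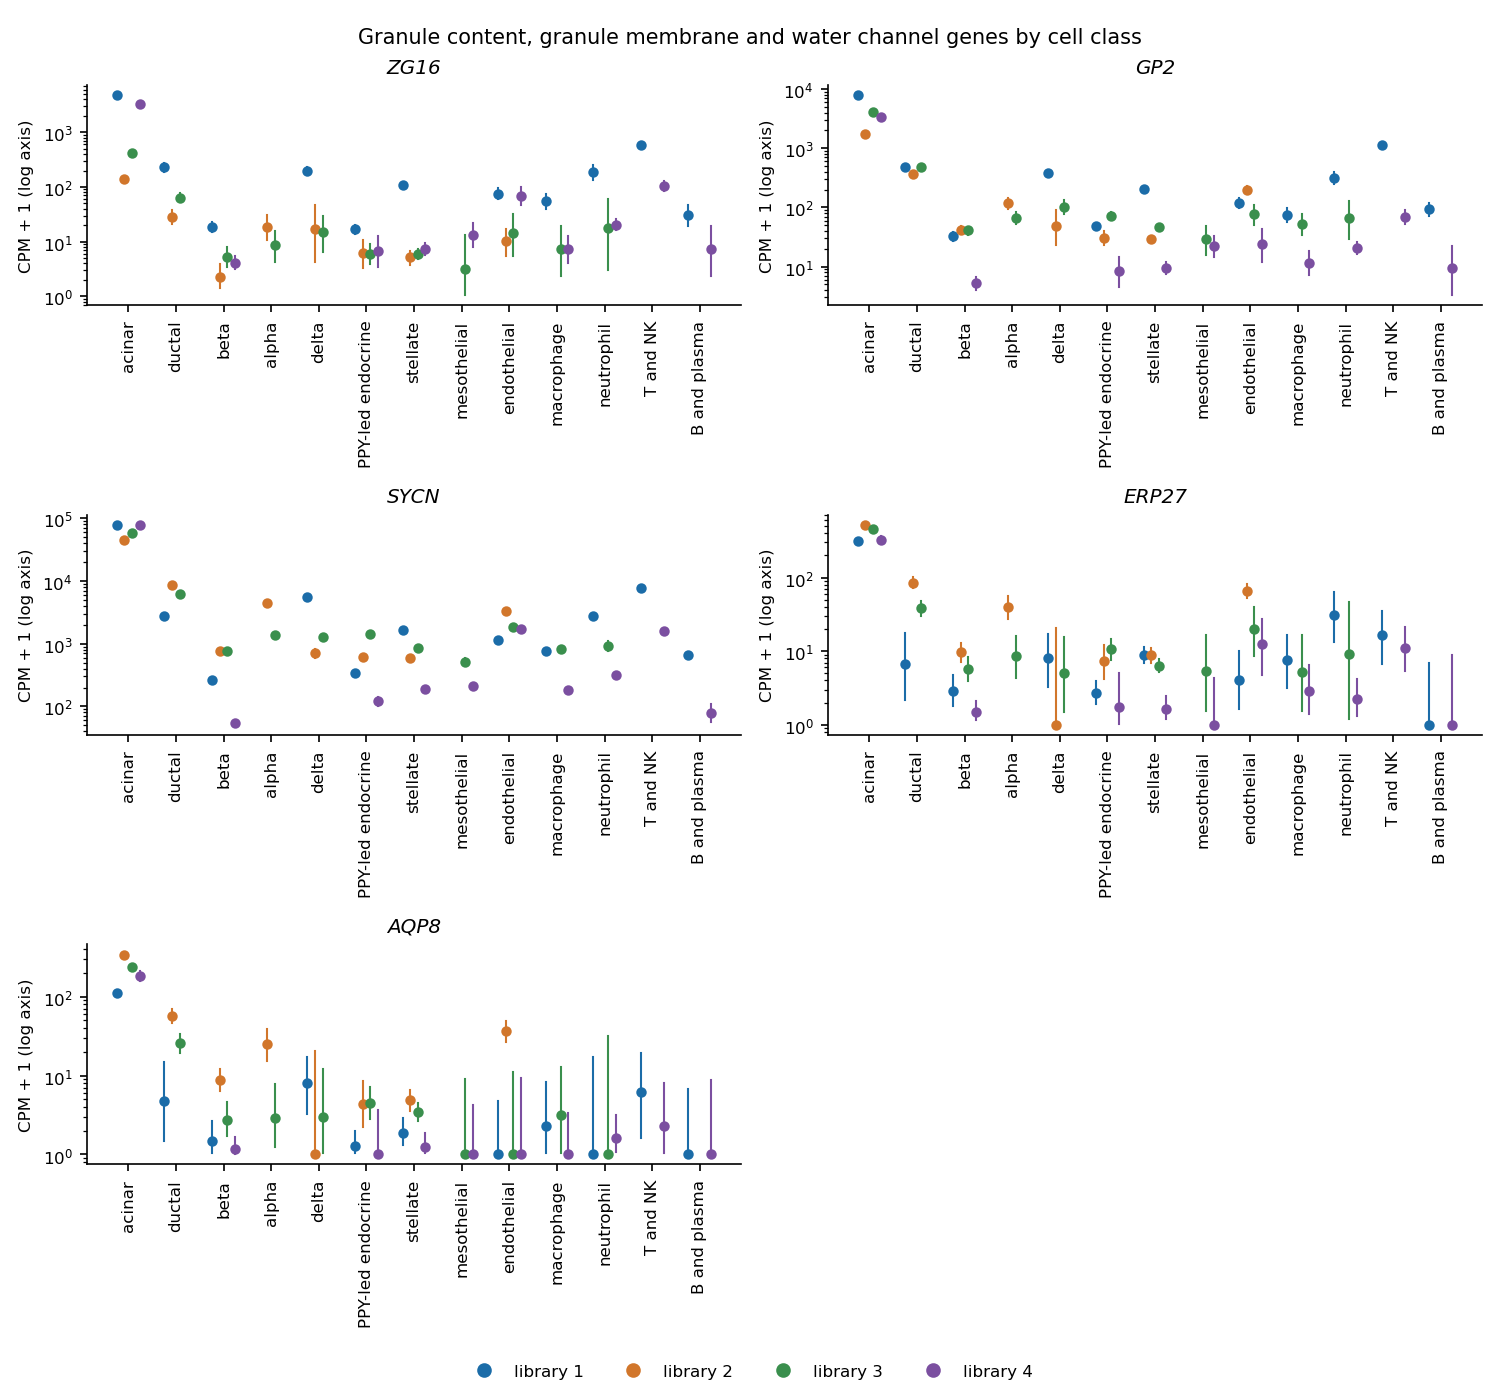
Level of ZG16, GP2, SYCN, ERP27 and AQP8 as CPM + 1 on a log axis, by cell class (x axis; class names are -like) and library (colour), for classes with at least 20 cells in the library. Points are sums over the cells of a class and bars are 95% exact Poisson intervals. Within each library acinar-like cells stand highest in every panel, with ZG16 spread from 141 to 4755 CPM over the libraries.

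Libraries 2 and 3 share 4 acinar-like clusters, and inside each of these ZG16 and GP2 differed between the libraries. In cluster 25 ZG16 was at 134 CPM in the 97 cells of library 2 and at 369 CPM in the 291 cells of library 3. In cluster 26 it was at 273 CPM in library 2 (24 cells) and 441 CPM in library 3 (489 cells), in cluster 22 at 140 and 255 CPM, and in cluster 20 at 131 and 427 CPM. GP2 in these 4 clusters was at 1855, 2190, 1747 and 1711 CPM in library 2 and at 3962, 4269, 2867 and 3776 CPM in library 3. Library 3 was the higher of this pair in all 4 shared clusters for both genes, and for SYCN as well (43639 against 53231 CPM in cluster 25). ERP27 showed no such order: it was higher in library 2 in 3 of these clusters and in library 3 in cluster 20 (401 and 417 CPM), with overlapping intervals in clusters 20, 22 and 25. AQP8 was higher in library 2 in all 4, with overlapping intervals in cluster 22 (351 and 291 CPM) and cluster 26 (269 and 261 CPM). In cluster 4, shared by libraries 1 and 4, GP2 was at 7863 and 3691 CPM, ZG16 at 4754 and 3914, and ERP27 at 312 and 299. In each cluster shared by libraries 2 and 3, LOC102176156 was higher in library 2. It stood at 247363 against 142475 CPM in cluster 25 and at 289423 against 147907 in cluster 22. A leading gene at this level lowers the CPM of all others in library 2. The levels were not recomputed without it, so the order of SYCN, at 46046 against 53125 CPM in cluster 22, may turn on this denominator. These levels by cluster were computed after the values by library had been seen.

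**Figure D2:**
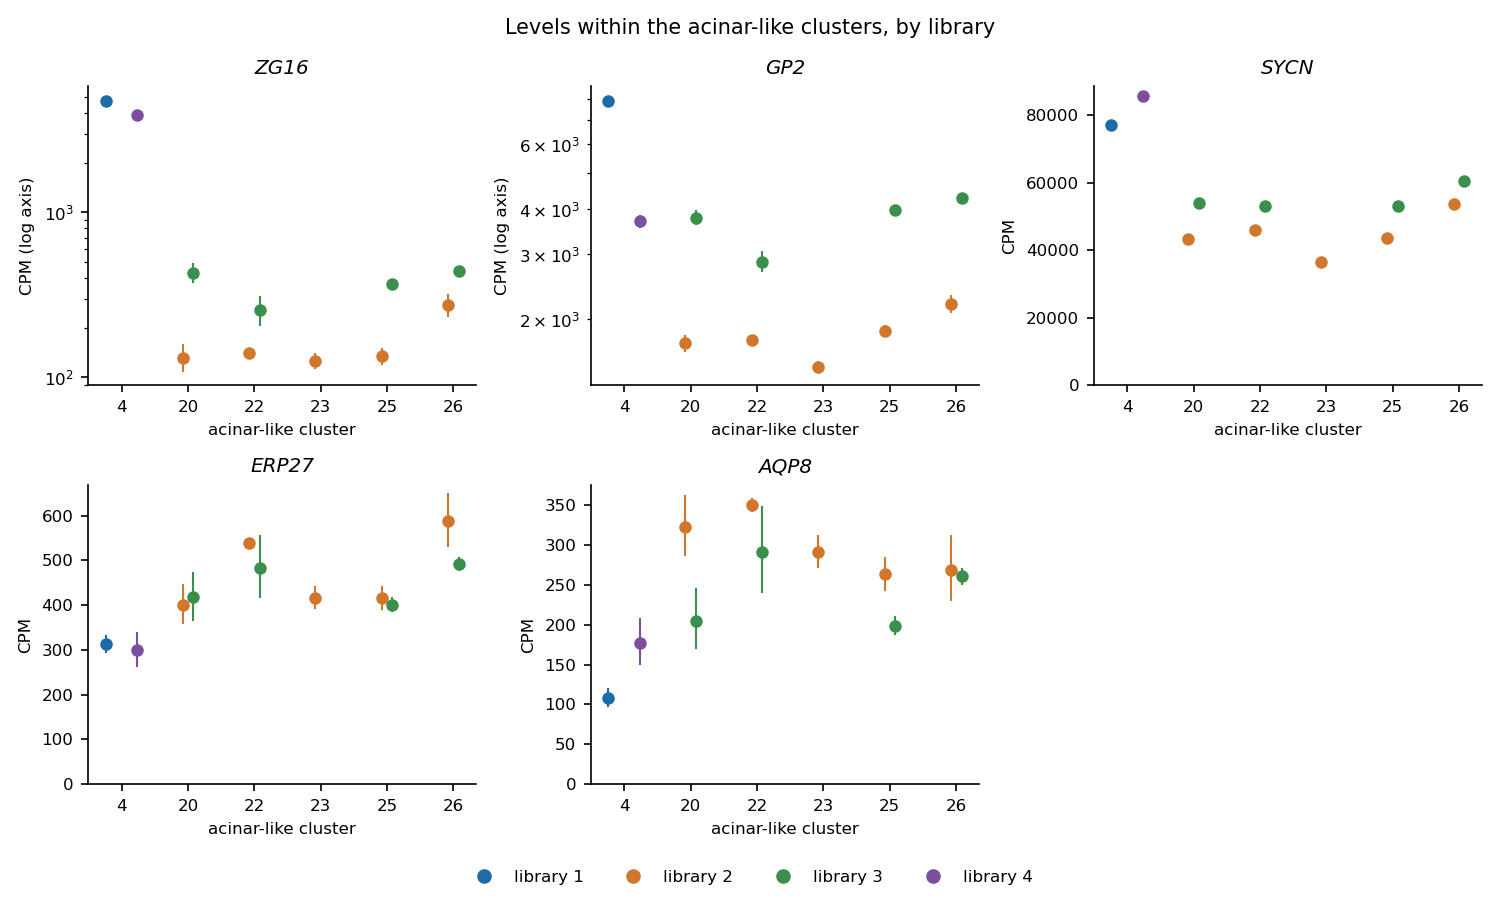
Level of 5 granule and apical membrane genes in each acinar-like cluster (x axis) by library (colour), for clusters with at least 20 cells of a library; bars are 95% exact Poisson intervals, and ZG16 and GP2 are on log axes. In each of clusters 20, 22, 25 and 26 the library 3 point lies above the library 2 point for ZG16, GP2 and SYCN. The CPM of library 2 are lowered there by its higher share of LOC102176156.

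Set against the other classes inside each library, the 3 granule proteins, ERP27 and AQP8 were all higher in acinar-like cells in each of 5 comparisons. A gene was called when its log2 ratio of CPM + 1 was at least 1 in size and of one sign in every library that held 20 cells or more of both classes, and when the class called higher held 20 UMIs or more of it in each of those libraries. It counted as measured when, library by library, at least 1 of both classes held 20 UMIs or more, which need not be the same class in every library. No p-value was computed, because libraries of unknown age are not replicates. Against ductal-like cells 5 of 8 measured genes were called higher and 2 lower, beside 1.56% and 56.3% of 5133 genes. Against endocrine-like cells 5 of 9 were called higher and 1 lower, beside 0.991% and 42.0% of 10902 genes. Against stellate-like cells 5 of 8 were called higher and 1 lower, beside 1.30% and 45.8% of 10364 genes. Against endothelial-like cells 5 of 6 were called higher and 1 lower, beside 2.91% and 51.6% of 3855 genes, and against immune-like cells 5 of 7 higher and 1 lower, beside 1.70% and 17.8% of 7355 genes. STX3, which is low in most classes, was measured against endocrine-like cells only.

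Of the 5 classes, ductal-like cells had the smallest median ratio for each of these genes: the median log2 ratio over libraries 1 to 3 was 2.68 for ZG16, 3.07 for GP2, 3.22 for SYCN, 3.57 for ERP27 and 3.21 for AQP8. SYCN in acinar-like cells exceeded its ductal-like level 27.9-fold, 5.24-fold and 9.33-fold in libraries 1 to 3. With a separate clustering of every library, the ductal-like group of library 2 took in 32 cells that the joint clustering calls acinar-like, and ZG16 (0.98) and GP2 (0.92) fell just short of the call in that library. Against endocrine-like cells the medians were 6.71, 6.55, 6.34, 6.26 and 6.05 for ZG16, GP2, SYCN, ERP27 and AQP8, and against stellate-like cells they were 5.76, 6.18, 6.17, 6.02 and 6.12. Against immune-like cells they ran from 5.16 for ZG16 to 5.70 for AQP8. The size of these medians moved with the processing while the direction did not. With free RNA subtracted, SYCN came to 11.74 against endocrine-like and 11.13 against stellate-like cells. ZG16 came to 9.52 and 7.68, and GP2 to 9.74 and 8.98. The subtracted share was set so that free RNA accounts for all enzyme UMIs of stellate-like cells, and was applied to every class. Genes that follow the enzymes are thus largely removed from stellate-like cells by construction, and these larger medians are no independent check. With a clustering at resolution 2, ZG16 came to 5.57, AQP8 to 6.21 and ERP27 to 6.23 against ductal-like cells. That setting used libraries 1 and 3 only, so its medians differ from the main ones in libraries as well as in resolution. AQP8 had 0 counts in endothelial-like cells of libraries 1, 3 and 4, against a floor of 3 counts per library, so it was at least 35.1-fold, 29.2-fold and 26.7-fold higher in acinar-like cells there. In library 2 AQP8 was at 35.6 CPM in endothelial-like cells and 9.41-fold higher in acinar-like cells.

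CPM are shares of a total, and the totals of acinar-like cells are taken up largely by the few leading genes given above. The median over all genes of the log2 ratio, taken in each library and then over the libraries, was -1.52 against ductal-like, -1.61 against endocrine-like, -1.67 against stellate-like, -2.26 against endothelial-like and -1.85 against immune-like cells. After each library was centred on this median, the same 5 genes were called higher in all 5 comparisons and none of the 9 was called lower. RAB3D joined them against ductal-like cells, with a centred median of 1.31. Centred RAB3D was also above 1 in every library against stellate-like (1.12 to 2.18) and immune-like cells (1.13 to 3.69), and centred RAB27B against stellate-like cells (1.10 to 2.68). These were not called, because acinar-like cells held 8 RAB3D and 11 RAB27B counts in library 4, and 15 RAB27B counts in library 1. The centred background was 10.6% higher and 9.51% lower against ductal-like, 3.48% and 8.37% against endocrine-like, 2.91% and 11.4% against stellate-like, 13.3% and 14.7% against endothelial-like, and 5.59% and 7.31% against immune-like cells.

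**Figure D3:**
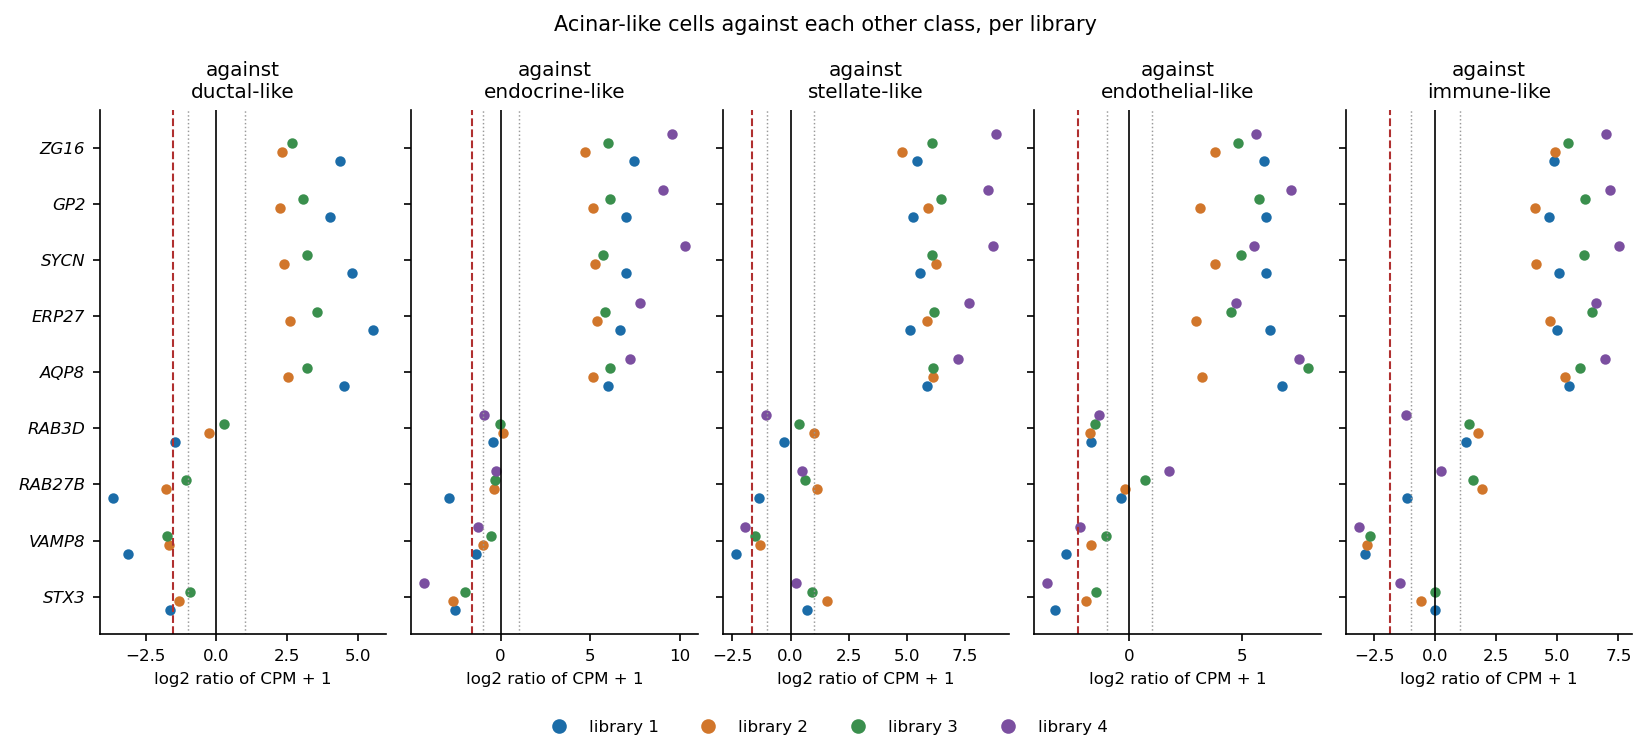
Log2 ratio of CPM + 1, acinar-like over each other class (panels), for 9 genes (rows), with 1 point per library. The solid line marks 0, dotted lines mark 1 and -1, and the dashed line is the median of all genes. ZG16, GP2, SYCN, ERP27 and AQP8 lie right of 1 in every panel, and VAMP8 lies left of 0 in every panel.

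The 5 genes stood lower outside the acinar-like cells. They were seen in all 5 classes there, except for AQP8 in endothelial-like cells of libraries 1, 3 and 4. SYCN still reached 8582 CPM in ductal-like cells of library 2. T and NK-like cells reached 7611 CPM for SYCN, 1145 for GP2 and 589 for ZG16 in the higher of 2 libraries. Amounts of ZG16, GP2 and ERP27 relative to SYCN lay near those of the acinar-like cells of the same library. Over the 5 other classes and the libraries, ZG16 stood at 0.471 to 2.26 times the acinar-like ratio. GP2 stood at 0.308 to 1.93 times and ERP27 at 0.509 to 1.88 times. AQP8 ran from 0, in the endothelial-like cells named above, to 1.67 times. Per 1000 SYCN UMIs, acinar-like cells of library 1 held 61.8 ZG16 UMIs, the other 5 classes held 43.7 to 82.5, and barcodes with 10 to 100 UMIs, taken here as free RNA, held 55.1. In library 4 the same values were 43.0 in acinar-like cells, 34.0 to 60.6 in the other classes and 50.9 in free RNA, whereas in library 2 they were 3.13, 1.47 to 7.08 and 5.48. The ZG16 ratio in cells of other classes thus moved with that of the acinar-like cells of their own library. How much of the lower level outside acinar-like cells was free RNA was not tested gene by gene. GP2 in library 1 was at 102 per 1000 SYCN UMIs in acinar-like cells and 106 in free RNA. ERP27 in library 2 was at 11.4 and 12.2, and AQP8 in library 2 was at 7.45 and 7.38. The share of stellate-like UMIs that free RNA would supply was estimated from the 9 enzymes, with the unnamed gene LOC108634769 left out of the free RNA. It was 3.69%, 2.40%, 2.20% and 1.32% in libraries 1 to 4. LOC108634769 took 15.6%, 10.7%, 23.8% and 70.4% of the free RNA UMIs, so the estimate depends on leaving it out, most of all in library 4.

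The granule traffic genes did not keep this proportion. SYCN is itself higher in acinar-like cells, with median log2 ratios from 3.22 against ductal-like to 6.34 against endocrine-like cells. Any gene not raised in acinar-like cells would therefore give high values per SYCN UMI in the other classes. No value over all genes was computed beside the ratios that follow, so they are not particular to granule traffic genes. VAMP8 per SYCN UMI was 17.1 to 3049 times as high in the other classes as in acinar-like cells of the same library, RAB3D was 4.40 to 2555 times as high, RAB27B was 3.86 to 1527 times as high and STX3 was 15.0 to 49060 times as high. The upper ends for RAB3D, RAB27B and STX3 rest on library 4, where acinar-like cells held 8, 11 and 1 counts. In free RNA VAMP8 stood 2.37 to 19.9 times above its acinar proportion.

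**Figure D4:**
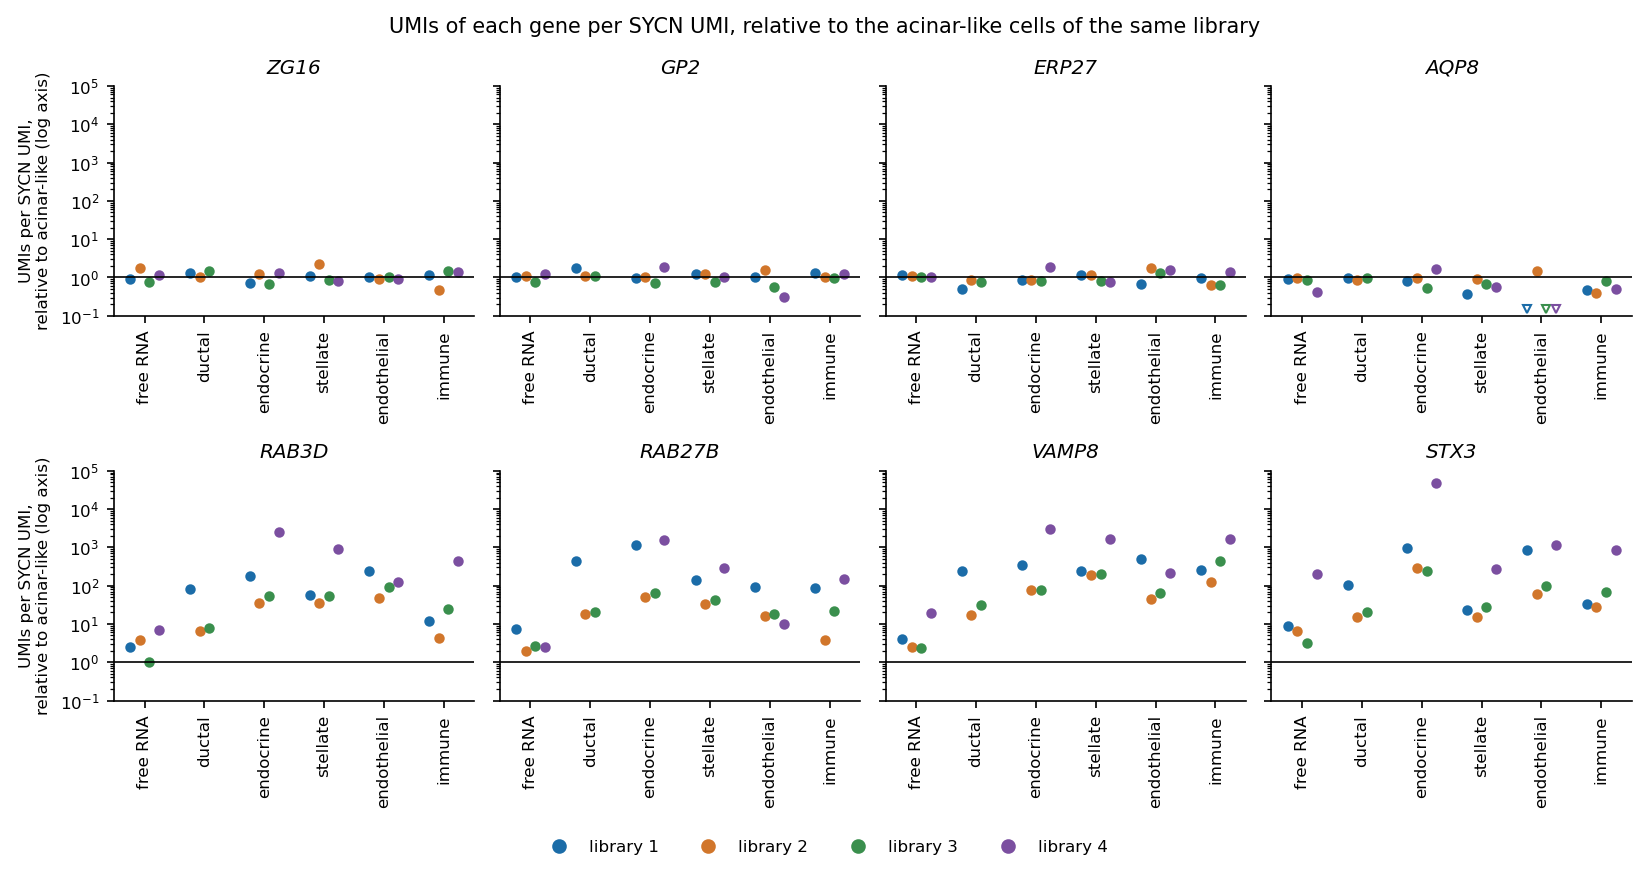
UMIs of each gene per SYCN UMI, divided by the same ratio in the acinar-like cells of the library, on a log axis, in free RNA (barcodes with 10 to 100 UMIs) and in 5 other classes; points are libraries, the line marks 1, and open triangles stand for 0 counts. ZG16, GP2 and ERP27 lie around 1. In the other classes AQP8 runs from 0 to 1.67, and VAMP8 from 17.1 to 3049.

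To compare shares of cells, every cell was thinned to 3400 UMIs, which left out 0 cells. SYCN was then seen in 100% of acinar-like cells in all 4 libraries, with a lower exact binomial limit of 94.8% in library 4. It was also seen in 76.1%, 84.1%, 91.2% and 20.3% of stellate-like cells, which should lack it, and these had median depths of 4879.5, 6798, 6687 and 8069 UMIs before thinning, when the shares were 87.2%, 96.9%, 98.9% and 34.8%. GP2 was seen in 99.7%, 96.8%, 98.7% and 98.6% of thinned acinar-like cells (unthinned 100%, 99.8%, 99.3% and 98.6%) and in 22.2%, 9.14%, 14.1% and 1.83% of stellate-like cells (unthinned 29.3%, 17.5%, 25.9% and 3.36%). For ZG16 the acinar-like shares were 99.7% (98.5 to 100), 33.4% (30.8 to 36.1), 63.3% (60.0 to 66.6) and 92.8% (83.9 to 97.6), against 100%, 71.4%, 89.6% and 97.1% unthinned. The stellate-like shares of ZG16 were 16.0%, 1.75%, 1.63% and 1.12% (unthinned 2.14% to 21.8%), below the acinar-like share in each library. ERP27 was seen in 59.4%, 76.3%, 70.2% and 65.2% of thinned acinar-like cells (unthinned 87.2% to 98.5%) and in 0.102% to 2.33% of stellate-like cells (unthinned 0.408% to 5.25%). AQP8 was seen in 28.6%, 67.6%, 52.4% and 42.0% of thinned acinar-like cells (unthinned 55.0%, 96.6%, 91.4% and 69.6%) and in 0.0782% to 1.26% of stellate-like cells (unthinned 0.204% to 2.53%). At equal depth, as in CPM, library 2 had the highest shares of ERP27 and AQP8 and the lowest of ZG16.

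Among the acinar-like cells of a library ZG16 and GP2 were correlated most in the libraries with the most ZG16. Over single cells their Spearman correlation was 0.53, 0.24, 0.20 and 0.71 in libraries 1 to 4, over 367, 1293, 848 and 69 cells that share a library and a range of depths. At 3400 UMIs the median acinar-like cell of library 1 held 17 ZG16 UMIs (10th to 90th percentile 7 to 34), and that of library 4 held 12, whereas that of library 2 held 0 and that of library 3 held 1. GP2 had medians of 32, 5, 13 and 12 UMIs. The correlation of SYCN with the share of the 9 enzymes in a cell was -0.05, 0.53, 0.42 and 0.26. These values are descriptions of single cells and carry no test.

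VAMP8 (gene ID 102169766), the SNARE protein on the zymogen granule membrane, was lowest of all named classes in acinar-like cells. Its level there was 40.7, 58.6, 67.5 and 40.7 CPM in libraries 1 to 4, below the 87.2 to 114 CPM of the next class, the endocrine-like clusters with PPY among their 10 leading genes. Ductal-like cells held 363, 191 and 229 CPM in libraries 1 to 3, and stellate-like cells 212, 148, 199 and 160 in libraries 1 to 4. VAMP8 was highest in macrophage-like cells (413, 444 and 409 CPM in libraries 1, 3 and 4) and neutrophil-like cells (408, 501 and 396), whose ranges overlap each other and those of no other class. It was called lower in acinar-like cells against ductal-like (median log2 ratio -1.75), stellate-like (-1.75), endothelial-like (-1.94) and immune-like cells (-2.83), but not against endocrine-like cells (-1.12, with libraries 2 and 3 at -0.99 and -0.56). Once centred, the medians against these 5 classes, in the same order, were -0.34, -0.02, 0.41, -1.05 and 0.42, and none was called. The call against endothelial-like cells rested on library 3 at -1.02 and was also lost with a pseudocount of 10 CPM (library 3 at -0.93). Thinned to 3400 UMIs, 11.7%, 19.6%, 18.3% and 17.4% of acinar-like cells held a VAMP8 UMI, against 63.0%, 69.7%, 78.6% and 68.9% of immune-like cells (unthinned 32.2%, 65.6%, 63.8% and 40.6% against 81.7%, 97.0%, 90.8% and 86.6%). UMIs per acinar-like cell numbered 0.447, 1.43, 1.45 and 0.638.

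RAB3D (gene ID 102187671), a GTPase of the zymogen granule surface, stood at 10.9, 15.1, 20.1 and 7.39 CPM in acinar-like cells, from 44, 475, 366 and 8 counts. Endothelial-like cells held more, at 38.2, 52.2, 59.5 and 20.6 CPM, and alpha-like cells held 27.7 and 41.4 in libraries 2 and 3, ranges that overlap. Endothelial-like exceeded acinar-like cells 3.50-fold, 3.46-fold, 2.95-fold and 2.79-fold in libraries 1 to 4, but in library 4 the classes held 9 and 8 counts, so RAB3D did not count as measured there. The median log2 ratio was -1.62 (range -1.72 to -1.36), and once centred it was 0.72 (range -0.01 to 1.43), so its direction turned on centring. Macrophage-like cells held 1.32, 4.25 and 1.25 CPM. The acinar-like range overlaps those of ductal-like, stellate-like, beta-like and neutrophil-like cells, and without centring RAB3D was called neither higher nor lower in the 4 comparisons that measured it. Against immune-like cells its log2 ratio was above 1 in libraries 1 to 3 and -1.18 in library 4, where neutrophil-like cells, at 32.0 CPM, made up 407 of 814 immune-like cells.

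STX3 (gene ID 102177181), a syntaxin that acts as target SNARE at apical and granule membranes, was low in acinar-like cells, at 12, 147, 77 and 1 counts (2.98, 4.67, 4.24 and 0.924 CPM). Its median was highest in beta-like cells, at 32.9, 46.5, 25.6 and 37.3 CPM, and these ranges overlap those of delta-like cells (23.7, 21.1 and 25.8 in libraries 1 to 3) and endothelial-like cells (38.2, 20.7, 13.5 and 22.9). Acinar-like cells were called lower than endocrine-like cells, with a median log2 ratio of -2.63 and a range of -4.26 to -2.02. Endocrine-like cells exceeded them 7.64-fold, 7.61-fold and 4.77-fold in libraries 1 to 3, and in library 4, where acinar-like cells had 1 count, the ratio of acinar-like to endocrine-like was 0.0257 with an interval of 0.000649 to 0.144. Once centred, the ratio was -1.23 and was not called, since library 3 reached only -0.70. Stellate-like cells had the lowest median, with a range of 0.614 to 1.77 CPM that overlaps that of acinar-like cells, and macrophage-like, neutrophil-like and T and NK-like cells were at 0 counts in 1 library each.

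**Figure D5:**
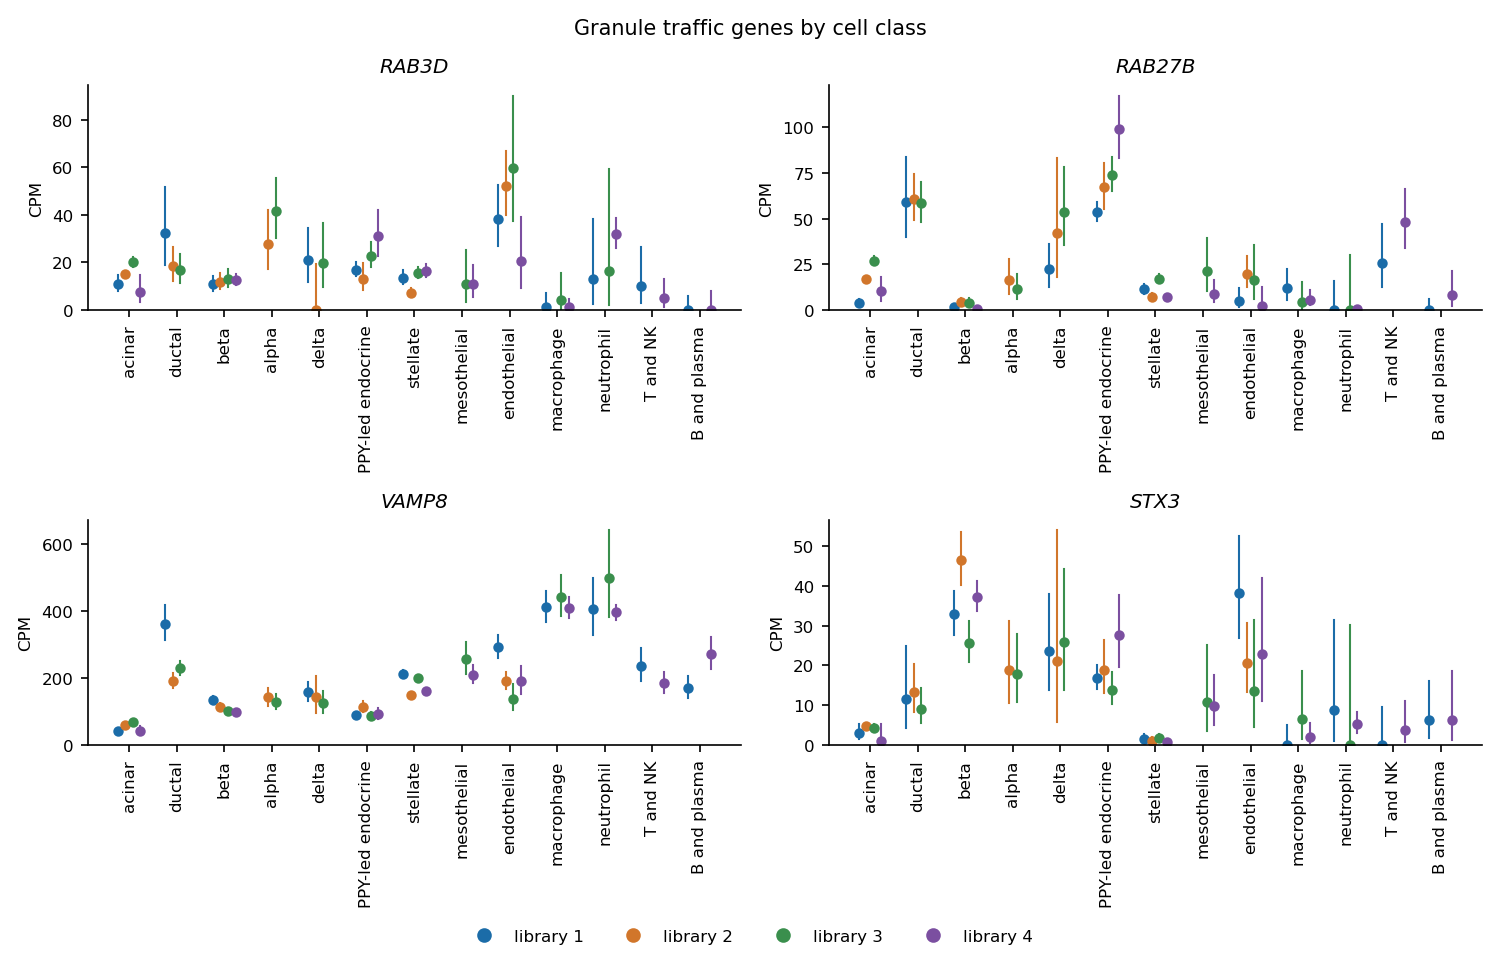
Level of RAB3D, RAB27B, VAMP8 and STX3 in CPM by cell class (x axis; class names are -like) and library (colour), with 95% exact Poisson intervals, for classes with at least 20 cells in the library. VAMP8 is lowest in acinar-like cells and highest in macrophage-like and neutrophil-like cells, STX3 has its highest median in beta-like cells, and RAB27B separates PPY-led endocrine-like cells at 53.6 to 99.2 CPM from beta-like cells at 0.564 to 4.12.

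RAB27B (gene ID 102188005), a GTPase that docks secretory granules in exocrine and endocrine cells, stood at 3.72, 17.2, 27.0 and 10.2 CPM in acinar-like cells, from 15, 541, 490 and 11 counts. Library 3 exceeded library 1 by 7.25-fold (interval 4.35 to 13.0). Ductal-like cells held 58.9, 61.0 and 58.6 CPM in libraries 1 to 3, and acinar-like cells were called lower than these, with a median log2 ratio of -1.77 and a range of -3.66 to -1.09. Centring on all genes ended that call at -0.25, and so did a pseudocount of 10 CPM, at -1.38 with 1 library at -0.89. RAB27B was not called against endocrine-like or stellate-like cells, and was not measured by the rule against endothelial-like and immune-like cells.

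Inside the endocrine-like cells RAB27B was uneven. The clusters with PPY, pancreatic polypeptide, among their leading genes held 53.6, 67.1, 73.9 and 99.2 CPM in libraries 1 to 4, and delta-like cells held 22.3, 42.2 and 53.6 in libraries 1 to 3. Beta-like cells held 1.63, 4.12, 4.02 and 0.564 CPM, from 7, 17, 16 and 6 counts. The ratio of PPY-led to beta-like cells was 32.8-fold (interval 15.8 to 82.2), 16.3-fold (9.76 to 28.9), 18.4-fold (11.1 to 32.7) and 176-fold (78.8 to 488) in libraries 1 to 4. RAB27B was the 1 gene of the 6 measured that was called in this comparison, beside 1.69% of 9291 genes called higher and 3.29% called lower. At 3400 UMIs a RAB27B UMI was seen in 18.1%, 19.4%, 22.8% and 14.3% of PPY-led cells (median depth 22092.5, 9942.5, 10071 and 15139 UMIs) and in 0.671%, 1.20%, 1.61% and 0.372% of beta-like cells (12620.5, 8001, 7921 and 18004 UMIs). The unthinned shares were 62.8%, 48.1%, 50.5% and 69.2% against 2.01%, 4.10%, 3.23% and 1.12%. The 407 neutrophil-like cells of library 4 held 1 RAB27B UMI among them. This pair of classes was chosen after the values had been seen.

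Partners of the granule genes were taken from lists of secretion genes fixed by name, and no list was tested. Among receptors for secretagogues CCKBR, which binds cholecystokinin and gastrin, was called higher in acinar-like cells in all 5 comparisons, with medians of 1.27 against ductal-like, 3.63 against endocrine-like, 4.04 against stellate-like, 3.57 against endothelial-like and 1.82 against immune-like cells. SCTR, the secretin receptor, was called lower than in ductal-like cells, at -4.65. It is also among the markers that named the ductal-like cluster, so this call is no test. No more than 2 of the 7 matched receptors were measured in any comparison. The median over protein disulfide isomerases and related folding genes lay above the median of all genes in each of the 5 comparisons. In the order ductal-like, endocrine-like, stellate-like, endothelial-like and immune-like it was -0.19, -0.43, -1.19, -0.33 and -0.67, beside -1.61, -1.47, -1.63, -2.23 and -1.85 for the median of all genes' medians over the libraries. PDIA2, the isomerase known from the pancreas, was called higher in all 5 comparisons, from 3.08 against ductal-like to 6.27 against endocrine-like cells. PDIA3 was called lower in all 5, from -2.80 to -1.70, and in 0 of them after centring. Without centring 1 of 11, 1 of 12, 1 of 12, 2 of 11 and 1 of 12 measured genes of this list were called higher, and 2, 1, 2, 1 and 2 lower, against ductal-like, endocrine-like, stellate-like, endothelial-like and immune-like cells. After centring, 7 of 11 measured genes of this list were called higher and 0 lower against ductal-like cells. PDIA2 (4.46), P4HB (2.65), ERP29 (2.22) and the chaperone HSPA5 (1.60) were among them. Against endothelial-like cells 7 of 11 were called higher. Against endocrine-like, stellate-like and immune-like cells 3, 3 and 4 of 12 were then called higher, and 0 lower in all 5 comparisons. The centred shares of all genes called higher were 10.6%, 3.48%, 2.91%, 13.3% and 5.59% against ductal-like, endocrine-like, stellate-like, endothelial-like and immune-like cells. Without centring 1.56%, 0.991%, 1.30%, 2.91% and 1.70% of all genes were called higher in that order. The shares called lower without centring were 56.3%, 42.0%, 45.8%, 51.6% and 17.8%.

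The counts called lower in the lists that follow stand beside 56.3%, 42.0%, 45.8%, 51.6% and 17.8% of all genes called lower against ductal-like, endocrine-like, stellate-like, endothelial-like and immune-like cells, and 9.51%, 8.37%, 11.4%, 14.7% and 7.31% after centring. SNARE genes and their partners were called higher in acinar-like cells in 0 of the 5 comparisons. Against endocrine-like cells 13 of 19 measured were called lower, and 7 after centring. CPLX2 (-5.96), CADPS (-5.52), SNAP25 (-4.38) and CPLX1 (-3.52) were among these, genes known for the fusion of dense-core granules and synaptic vesicles. Over the list the median was -1.97, beside -1.47 over all genes. Against ductal-like, stellate-like, endothelial-like and immune-like cells 2 of 6, 10 of 13, 2 of 5 and 1 of 12 were called lower, and 0, 1, 1 and 1 after centring. STX2 (-4.17 and -4.55) and STX7 (-4.36), syntaxins of the cell surface and of endosomes, had the lowest ratios among these. Among small GTPases and their effectors 12 of 18 were called lower and 0 higher against endocrine-like cells, led by RAB3B (-4.75), RAB3A (-4.26) and RAB3C (-4.20), and after centring the calls were these 3. Against ductal-like, stellate-like, endothelial-like and immune-like cells 7 of 10, 7 of 15, 7 of 11 and 4 of 14 were called lower and 0, 2, 1 and 1 higher. After centring 0, 1, 2 and 1 were called lower and 2, 2, 2 and 1 higher. RAB26, a GTPase of secretory granules, was called higher than in stellate-like (3.42), endothelial-like (2.49) and immune-like cells (3.36), and TPD52, a phosphoprotein of acinar secretion, higher than in stellate-like cells (2.54) and lower than in endocrine-like cells (-1.71), a call that centring ended. RAB26 kept its 3 calls after centring (4.83, 5.31 and 5.20).

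Of calcium sensors, channels and pumps 0 were called higher in the 5 comparisons without centring, and 1 of 3, 5 of 9, 5 of 6, 2 of 2 and 0 of 4 measured were called lower against ductal-like, endocrine-like, stellate-like, endothelial-like and immune-like cells. SYT7 (-4.69) and SYT11 (-4.64), of which SYT7 is a calcium sensor of exocytosis, were called lower than in endocrine-like cells, also after centring (-3.07 and -3.02). The only other gene of this list called lower after centring was ORAI1, a calcium channel, against stellate-like cells (-3.12), and SYT5 was then called higher than in ductal-like cells (2.02). Among genes of granule membrane, content and ion transport, 0 of 12, 1 of 11, 1 of 12, 1 of 10 and 1 of 12 were called higher and 8, 6, 7, 7 and 5 lower, in the same order of classes. After centring 2, 1, 1, 1 and 1 were called higher and 1, 4, 0, 1 and 2 lower, with SLC30A2, a zinc transporter, at 2.53 and SPINK1 at 1.91 the 2 called higher against ductal-like cells. The 1 called higher without centring was SPINK1, the trypsin inhibitor packed with the enzymes, against endocrine-like (6.25), stellate-like (5.78), endothelial-like (5.19) and immune-like cells (5.41). ATP6AP2, a subunit tied to the vacuolar proton pump, was called lower against endocrine-like (-5.13), immune-like (-3.59), stellate-like (-2.70) and ductal-like cells (-2.68), of which the call against stellate-like cells was lost on centring. AQP1, a water channel of vessels, was called lower than in endothelial-like cells at -7.28. In PPY-led against beta-like cells 1 of 18 measured small GTPases and effectors was called higher and 1 lower. These were MYRIP, an effector of RAB27 (1.82), and RAB3B (-3.38). Of 5 measured calcium genes ITPR2 was called higher (1.53), and of 18 SNARE genes and partners CPLX1 was called lower (-1.59). The granule membrane and isomerase lists, with 11 measured genes each, had 0 calls. Beside these stand 1.69% of 9291 genes called higher and 3.29% called lower.

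The named genes whose level was most like that of each granule gene, over 40 points of class and library, are given next. SYCN was closest to CEL (Pearson r = 0.99), PRSS2 (0.98) and CLPS (0.98), all digestive enzymes or cofactors. GP2 was closest to SYCN (0.96), PDIA2 (0.96) and CLPS (0.95), and ZG16 to PLA2G1B (0.96), CTRC (0.94) and CELA1 (0.92). ERP27 was closest to PRSS2 (0.94), DPEP1 (0.93) and CEL (0.93), and AQP8 to DPEP1 (0.93), GIF (0.92) and SLC25A45 (0.92). VAMP8 was closest to CTSA (0.95), a lysosomal protease, then PRR13 (0.94) and MAT2B (0.93). STX3 was closest to TDRP (0.85), ELOVL7 (0.85) and DMTN (0.84), RAB27B to FIGN (0.74), CCDC68 (0.73) and SERHL2 (0.73), and RAB3D to PLCB1 (0.71), USP42 (0.70) and PDE8A (0.70). Among the 9 genes themselves GP2 and SYCN were closest at 0.96 and ERP27 and SYCN followed at 0.92, while VAMP8 had a negative value with all 8 others, from -0.54 with AQP8 to -0.16 with RAB3D. The points share libraries and free RNA, and these values carry no test.

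In the gene order of assembly ARS1.2, CCDC68 is the gene next to RAB27B and also its second closest in pattern. UMOD, a paralogue of GP2 known from the kidney, is the gene next to GP2. VAMP8 lies beside VAMP5, another gene of its family.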

How the data were processed

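The deposited matrix holds UMI counts per gene and barcode of 4 libraries, made with Cell Ranger 5.0.1, per the file headers. Per the submitters' processing notes the tools were Seurat 3.1.1 and Cell Ranger 3.1.0, and which version made the matrix is not settled. The genome build is not given in the sources used here, so genes are named by symbol, and 27103 of 27137 gene IDs matched the RefSeq table of assembly ARS1.2. The deposited values are whole numbers, and the matrix includes barcodes of a few UMIs.

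Cells were barcodes with more UMIs than 1/10 of the 99th percentile of the top 8000 barcodes of their library and at least 500 genes. Scrublet, run per library, removed 77, 2, 111 and 4 doublets. In library 2 and library 4 it marked almost no cells and cannot be taken to have worked, so the removal of the 5% of cells with the highest scores was tried as an alternative. Cells were clustered with scanpy 1.11.5 (2000 variable genes, 30 components, 15 neighbours, Leiden resolution 1, no batch correction), and clusters were named from at least 3 markers that were 2-fold higher and in 10% of cells; these thresholds were set after seeing the data. Counts were summed per library and class, and CPM carry 95% exact Poisson intervals and shares exact binomial intervals, both for counting error only. Python 3.11.15, scipy 1.17.1 and numpy 2.4.6 were used. The call rule was run on simulated counts, with centring and with changes set only in genes of higher counts. Calls without centring were not covered, nor were changes in genes of low counts.

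Libraries could not be tied to an age, so the planned edgeR comparison of ages was not run and no SD or p-value is given. All genes of the set are named, with the 3 named genes nearest in pattern to each and up to 6 called genes per list by size of ratio. A listed gene that this rule would name is not reported here. The genes and the lists were chosen with earlier results of these data known. Alternatives covered the pseudocount, centring, cell calling, doublets, resolution, clustering per library, count minimum, free RNA, mixed cells, each library left out, and totals without the leading acinar genes.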

Additional observations from a re-analysis of the deposited data

Results flagged for a closer look

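Barcodes with 10 to 100 UMIs, which belong to no cell class and were used above as free RNA, carried granule transcripts in all 4 libraries. The lowest level over the libraries was 3447 CPM for SYCN, 185 CPM for GP2, 121 CPM for ZG16 and 14.9 CPM for ERP27. VAMP8 was also present in these barcodes, at 35.6 CPM in the library where it was lowest. All of these but the ZG16 value come from library 4. There LOC108634769 took 70.4% of the UMIs of these barcodes, which lowers the CPM of every other gene. These values were above the limit that 0 counts would allow.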

How the results depend on the processing

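Of the values for single genes under the alternatives, 501 kept their call or stayed uncalled, and 17 kept the direction and lost the call. A further 1 gained a call, 1 moved to a call of the other sign, and 1 called gene reversed. Where a gene stayed uncalled its direction was not checked in this count. VAMP8 against endocrine-like cells, for example, went from -1.12 to 0.42 on centring. The count of genes called lower in acinar-like cells depended most on the processing. Centring on the median of all genes took it to 0 in all 5 comparisons (from 2 against ductal-like cells and 1 against each other class) and turned VAMP8 against endothelial-like cells to 0.41. Totals without the leading acinar genes, an alternative chosen after seeing the data, gave 0 against ductal-like, stellate-like and endothelial-like cells. Against ductal-like cells 1 gene remained (VAMP8) with a pseudocount of 10 CPM, a minimum of 50 counts or resolution 2, the last with libraries 1 and 3 only. Against endothelial-like cells the count was 0 with a pseudocount of 10 CPM, a minimum of 1000 UMIs per cell, the top 5% of doublet scores removed or resolution 2, since VAMP8 in 1 library then came to between -0.99 and -0.71. Leaving out each library in turn gave 1 to 2 there, with RAB3D added without library 4. Against immune-like cells leaving out each library in turn gave 5 to 6 called higher, RAB3D (1.37) being added without library 4.

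Clustering each library on its own gave 3 genes called higher against ductal-like cells (SYCN, ERP27 and AQP8), because the lowest library came to 0.98 for ZG16 and 0.92 for GP2. The ductal-like group of library 2 then held 178 cells, 32 of them acinar-like in the joint clustering. No paired analysis was possible because the barcodes carry no replicate number that a label ties to an animal, and the age comparison, its block and its DESeq2 alternative were not run. Depth limits STX3, RAB3D and RAB27B most, with 1, 8 and 11 counts in the acinar-like cells of library 4.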
